A study of Homo sapiens with 4 samples.

Results

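The genes described here are 9 serum-response immediate early genes outside the AP-1 family: the zinc finger factors EGR1 and EGR3, the orphan nuclear receptors NR4A1 and NR4A2, the immediate early response genes IER2, IER3 and IER5, the MAP kinase phosphatase DUSP1, and the serum response factor SRF. They were chosen by symbol, and all 9 were found among the 20263 rows of a table of read counts per gene and were among the 14180 genes kept by a filter on low counts. RNA-seq reads were counted in HCT116, a human colorectal carcinoma line. Cells in medium with fetal bovine serum were given HJJ_3_5, which the series title calls a piperine derivative, or were kept as the DMSO solvent control, for 24 h. There were 2 libraries of each, numbered 1 and 2. The dose is not given in the labels. Whether the pair in a group stems from separate cultures is not stated, so the p-values rest on a spread that may be technical.

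Immediate early genes are transcribed within minutes of a growth signal, with no need for new protein synthesis. SRF binds a DNA element called the CArG box and recruits ternary complex factors, which are phosphorylated by ERK, or actin-regulated MRTF cofactors. EGR and NR4A proteins are themselves transcription factors, and DUSP1 dephosphorylates MAP kinases and so limits the signal that induces it. The libraries here were taken at the single time of 24 h, so the first wave of induction was not measured.

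The libraries held between 29211120 and 36455176 counts. The epithelial markers EPCAM, CDH1, KRT8, KRT18, KRT19 and CDX2 were all detected, at 14.1 CPM (counts scaled to library size) or more in each library. The colon differentiation markers VIL1, CEACAM5 and LGALS4 were below 1 CPM and CDX1 was at 0. The summed level of 10 epithelial markers was 4768 and 4338 CPM with DMSO and 5848 and 4938 CPM with HJJ_3_5, of which KRT8, KRT18 and KRT19 made up most. The markers moved both ways. Log2 fold changes (HJJ_3_5 minus DMSO) were 0.83 for KRT18 and CDX2, 0.50 for KRT8, 0.06 for CDH1, -0.28 for EPCAM and -0.32 for KRT19. Of these, KRT18 and CDX2 passed the test described below. The leukocyte marker PTPRC and the fibroblast marker DCN were at 0 in all 4 libraries. The summed fibroblast list was 67.3 and 65.2 CPM with DMSO and 35.3 and 40.7 CPM with HJJ_3_5, of which COL1A1 made up nearly all. The leukocyte list summed to 43.1 and 37.1 CPM with DMSO and 27.6 and 20.2 CPM with HJJ_3_5, of which CD68 made up nearly all. The part of these lists in the results below was not tested.

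Promoter sequence is shown for EGR1 and SRF, which hold the CArG box, and for DUSP1, which holds sites of the cAMP response element type and no CArG box. The part of these sites in the responses was not tested. The sequences are RefSeq windows on GRCh38.p14, 5′ to 3′ on the gene's strand, from 250 bases before to 50 bases after the gene start. Capitals mark the CArG box (CC, then 6 letters that are A or T, then GG) in EGR1 and SRF, and the CREB motif TGACG, or CGTCA where it lies on the other strand, in DUSP1. The windows are chr5:138465229-138465528, plus strand, for EGR1, chr6:43171019-43171318, plus strand, for SRF, and chr5:172771146-172771445, minus strand, for DUSP1.
EGR1: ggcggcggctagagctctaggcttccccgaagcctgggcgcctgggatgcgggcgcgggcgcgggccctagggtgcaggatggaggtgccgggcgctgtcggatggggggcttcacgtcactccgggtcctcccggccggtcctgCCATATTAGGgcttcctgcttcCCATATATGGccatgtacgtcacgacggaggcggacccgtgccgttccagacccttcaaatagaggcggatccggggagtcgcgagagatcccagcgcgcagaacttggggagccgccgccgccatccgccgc
SRF: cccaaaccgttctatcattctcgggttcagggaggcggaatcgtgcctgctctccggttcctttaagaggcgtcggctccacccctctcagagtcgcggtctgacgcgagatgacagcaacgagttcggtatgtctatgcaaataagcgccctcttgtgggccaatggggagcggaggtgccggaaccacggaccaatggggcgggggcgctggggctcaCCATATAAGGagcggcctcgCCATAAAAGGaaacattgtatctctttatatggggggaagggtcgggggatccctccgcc
DUSP1: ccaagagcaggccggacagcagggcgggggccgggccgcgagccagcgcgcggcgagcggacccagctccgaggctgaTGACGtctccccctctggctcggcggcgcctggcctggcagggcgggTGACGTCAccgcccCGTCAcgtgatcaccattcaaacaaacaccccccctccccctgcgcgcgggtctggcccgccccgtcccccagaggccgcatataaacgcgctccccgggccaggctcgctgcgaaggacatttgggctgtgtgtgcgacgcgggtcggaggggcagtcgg
Relative to the RefSeq start, EGR1 had 2 CArG boxes, from -105 to -96 and from -83 to -74. SRF had 2, from -30 to -21 and from -10 to -1. Searched on both strands, a CArG box was present in 1.29% of 35116 promoter windows and 2 or more were present in 0.0313%. DUSP1 had 4 CREB motifs, and a pair that overlaps from -125 to -118 forms a full palindrome. The CREB motif was present in 24.6% of all windows. Promoter windows were found for 6 of the 9 genes. Of these 6, 2 held a CArG box, 4 (EGR1, SRF, DUSP1 and IER2) held a CREB motif, and 2 (EGR1 and SRF) held the EGR site GCGNGGGCG, which was present in 9.43% of all windows. A match is a description of the letters and not evidence of binding.

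The single comparison of the study was HJJ_3_5 against DMSO, which asks what the compound does to expression in colon cancer cells. In these 9 genes the response was split. EGR1 and DUSP1 fell to less than 0.5 times their DMSO level, EGR3 and NR4A2 rose, and the other 5 genes did not pass the test. A gene is called higher or lower at a Benjamini-Hochberg adjusted p below 0.05 in edgeR's quasi-likelihood test over all 14180 genes. By this rule 2 of the 9 genes were higher, against a background of 9.17% of all genes tested, and 2 were lower, against 8.27%. In either direction, 17.4% of all genes were called. The libraries of the groups did not overlap for 6 of the 9 genes, against 69.0% of all genes. Both HJJ_3_5 libraries lay above both DMSO libraries for EGR3, NR4A2 and SRF (35.1% of all genes) and below them for EGR1, NR4A1 and DUSP1 (33.9%). The median log2 fold change was 0.00 for the 9 genes and 0.00 for all genes. Levels below are CPM with library sizes scaled by TMM (trimmed mean of M-values), group values are mean ± SD (n = 2), and ± after a log2 fold change is its standard error.

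**Figure D1:**
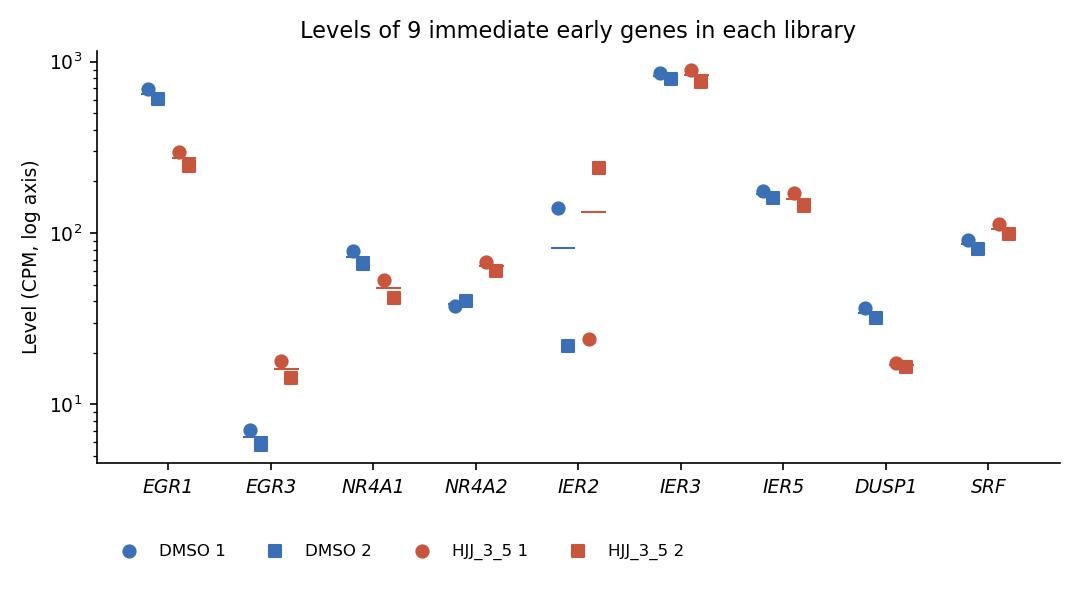
Level of each of the 9 genes in each library, in CPM on a log axis; circles are library 1 and squares library 2 of a group, blue is DMSO, red is HJJ_3_5, and short lines are group means. EGR1 and DUSP1 lie lower and EGR3 and NR4A2 higher in both HJJ_3_5 libraries, while the 2 libraries of each group stand far apart for IER2.

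EGR1 encodes a zinc finger transcription factor that binds GC-rich sites and is a classic target of SRF and ternary complex factors (ENSG00000120738, GENCODE 29 on GRCh38 chromosome 5, 138465490 to 138469315). Its level was 695 and 604 CPM in the DMSO libraries and 299 and 248 CPM in the HJJ_3_5 libraries. Both treated libraries lay well below both controls, and the gap was several times the spread within either group. The group mean was 649 ± 64 against 273 ± 36 CPM, and the log2 fold change was -1.25 ± 0.14 (edgeR adjusted p = 0.0273). Of all genes tested, 4.81% had a lower fold change. In bulk RNA, fewer cells with the transcript and less of it per cell cannot be told apart. EGR3, a paralog of EGR1 with a like DNA-binding domain, did the opposite (ENSG00000179388, chromosome 8, 22687659 to 22693302). It had 7.13 and 5.83 CPM with DMSO and 17.9 and 14.2 CPM with HJJ_3_5. Its groups did not overlap either, although the gene was scarce, with 161 to 557 reads in a library. Mean levels were 6.48 ± 0.92 and 16.1 ± 2.6 CPM, with a log2 fold change of 1.31 ± 0.20 (edgeR adjusted p = 0.0301), and 97.1% of all genes had a lower fold change. The calls of both genes were lost without DMSO 1, without DMSO 2 or without HJJ_3_5 1. The calls in the lists of related genes below were lost in these fits too, so the loss was not particular to this pair. Over these fits the log2 fold change ran from -1.39 to -1.15 for EGR1 and from 1.13 to 1.46 for EGR3.

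Because both genes are read in the same libraries, their ratio does not depend on how libraries are scaled. There were 0.0103 and 0.00966 EGR3 counts for each EGR1 count with DMSO and 0.0599 and 0.0574 with HJJ_3_5. The libraries of a group were close to each other, and the ratio was 5.89-fold higher with HJJ_3_5. With 2 libraries against 2 no permutation test can pass 0.05, so this ratio is given with no test. EGR1 stayed by far the more abundant of the pair, also per length of transcript, at 87.1 against 3.71 CPM per kilobase with HJJ_3_5.

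The 2 orphan nuclear receptors were split in a similar way. NR4A2, also called NURR1, is a ligand-independent transcription factor that is induced by cAMP and growth signals (ENSG00000153234, chromosome 2, 156324432 to 156342348). It had 37.5 and 40.1 CPM with DMSO and 68.2 and 60.4 CPM with HJJ_3_5. Both treated libraries lay above both controls, with means of 38.8 ± 1.9 and 64.3 ± 5.5 CPM and a log2 fold change of 0.73 ± 0.12 (edgeR adjusted p = 0.0335). NR4A1, also called NUR77, is its paralog and can move to mitochondria in apoptosis (ENSG00000123358, chromosome 12, 52022832 to 52059507). NR4A1 had 78.5 and 65.7 CPM with DMSO and 53.5 and 41.5 CPM with HJJ_3_5. The treated libraries were lower without overlap, but the difference did not pass the test, with a log2 fold change of -0.60 ± 0.18 (edgeR adjusted p = 0.0783). It was called lower with a GC and length trend removed (-0.89, edgeR adjusted p = 0.0173) and by DESeq2 (-0.61, adjusted p = 0.0279). As for EGR1 and EGR3, the call of NR4A2 was lost without DMSO 1, DMSO 2 or HJJ_3_5 1, with log2 fold changes of 0.64 to 0.78. NR4A2 counts per NR4A1 count went from 0.478 and 0.611 with DMSO to 1.28 and 1.45 with HJJ_3_5. Per kilobase of transcript, NR4A1 stood above NR4A2 with DMSO (20.5 against 11.2 CPM per kilobase), and the order was turned with HJJ_3_5 (13.5 against 18.5).

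**Figure D2:**
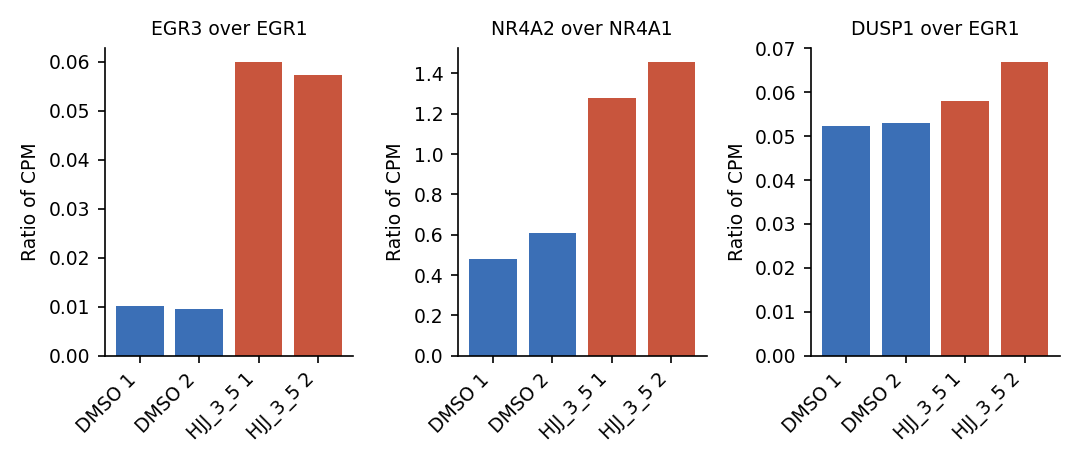
Ratio of the CPM of a pair of genes in each library (bars start at 0; blue DMSO, red HJJ_3_5), for EGR3 over EGR1, NR4A2 over NR4A1 and DUSP1 over EGR1. The first pair went from 0.0103 and 0.00966 to 0.0599 and 0.0574 and the second from 0.478 and 0.611 to 1.28 and 1.45, while the third was 0.0523 and 0.0530 with DMSO and 0.0581 and 0.0668 with HJJ_3_5.

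DUSP1 encodes a nuclear phosphatase that inactivates p38, JNK and ERK (ENSG00000120129, chromosome 5, 172768090 to 172771195). Its level was 36.3 and 32.0 CPM with DMSO and 17.4 and 16.6 CPM with HJJ_3_5. The groups did not overlap, and the treated libraries were nearly alike. Means were 34.2 ± 3.0 and 17.0 ± 0.6 CPM, and the log2 fold change was -1.01 ± 0.13 (edgeR adjusted p = 0.0276), with 7.97% of all genes below it. DUSP1 counts per EGR1 count were 0.0523 and 0.0530 with DMSO and 0.0581 and 0.0668 with HJJ_3_5, so the ratio of the 2 genes that fell was 1.18-fold higher. As for EGR1, the call of DUSP1 was lost without DMSO 1, DMSO 2 or HJJ_3_5 1, where the log2 fold change was -1.10 to -0.92.

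SRF, the factor that gives the serum response its name, did not pass the test (ENSG00000112658, chromosome 6, 43171299 to 43181507). It had 90.8 and 81.0 CPM with DMSO and 112.5 and 98.2 CPM with HJJ_3_5. The treated libraries lay above the controls, by less than the spread allowed for, with a log2 fold change of 0.29 ± 0.12 (edgeR adjusted p = 0.156) and a 95% interval from -0.03 to 0.62. Its value was 0.03 once the GC and length trend was removed. The SRF and EGR1 promoters printed above both carry a pair of CArG boxes. SRF counts per EGR1 count were 0.131 and 0.134 with DMSO and 0.376 and 0.396 with HJJ_3_5.

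IER3 and IER5 had like levels in both groups. IER3, also called IEX-1, is a short-lived regulator of apoptosis and of ERK signalling (ENSG00000137331, chromosome 6, 30743199 to 30744554). It was the most abundant of the 9 genes per length of transcript, at 615 CPM per kilobase with DMSO and 616 with HJJ_3_5. Its level was 863 and 796 CPM with DMSO and 901 and 762 CPM with HJJ_3_5. The groups overlapped, the log2 fold change was 0.00 ± 0.12 (edgeR adjusted p = 0.99), and the 95% interval ran from -0.31 to 0.32. IER3 was called lower with the GC and length trend removed (-0.30, edgeR adjusted p = 0.0342), so its value depends on that choice. IER5, which binds the phosphatase PP2A and promotes HSF1 activity, had 176 and 161 CPM with DMSO and 172 and 145 CPM with HJJ_3_5 (ENSG00000162783, chromosome 1, 181088712 to 181092899). These groups overlapped too, with a log2 fold change of -0.09 ± 0.13 (edgeR adjusted p = 0.636) and a 95% interval from -0.42 to 0.24. A change of 2-fold lies outside both intervals.

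IER2, a nuclear protein of the same naming family (ENSG00000160888, chromosome 19, 13150415 to 13154908), gave no usable comparison, because libraries of one group differed more than the groups. It had 4146 and 604 reads with DMSO and 741 and 9416 reads with HJJ_3_5, or 141, 21.9, 23.9 and 241 CPM. DMSO 1 and HJJ_3_5 2 were high, DMSO 2 and HJJ_3_5 1 were low, and the groups overlapped. DMSO 1 was 6.43-fold above DMSO 2, and HJJ_3_5 2 was 10.04-fold above HJJ_3_5 1. The log2 fold change of 0.70 ± 1.30 (edgeR adjusted p = 0.72) was 2.59 without DMSO 1, -0.09 without DMSO 2, 1.56 without HJJ_3_5 1 and -1.77 without HJJ_3_5 2. Such a spread was rare. Among 10663 genes whose average log2 CPM reached 3, 38 differed over 4-fold between the DMSO libraries, 37 between the HJJ_3_5 libraries and 12 in both. The other 8 genes of the group described here differed between libraries of a group by at most 0.36 on the log2 scale.

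**Figure D3:**
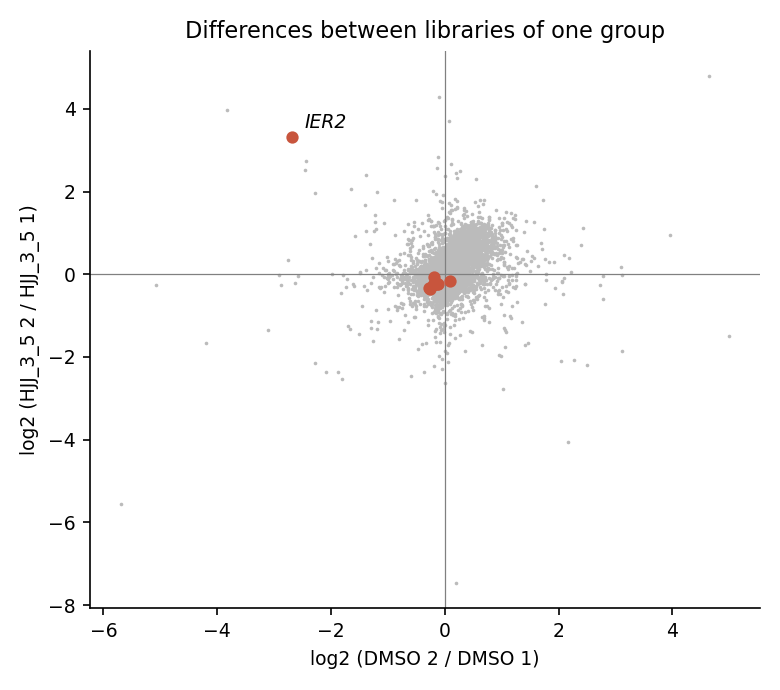
Difference between the 2 libraries of a group for 10663 genes whose average log2 CPM reached 3, with DMSO on the x axis and HJJ_3_5 on the y axis (log2 of library 2 over library 1); red points are the 9 genes. IER2 is the labelled point at upper left, where 3 further genes lie beyond 4-fold on both axes, and the other 8 red points lie within 0.36 of 0 on both axes.

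The 9 transcripts differed in exon number, and none had more exons than the median over all genes. By their longest protein-coding transcript in GENCODE 29, IER2, IER3 and IER5 had 1 exon, EGR1 and EGR3 had 2, DUSP1 had 4, SRF had 7, and NR4A1 and NR4A2 had 8, where the median over all genes was 8. The AU-rich pentamer ATTTA, searched on the sense strand of the 3′ UTR with overlaps counted, was found 10 times in IER5, 6 times in IER3, 4 times in DUSP1 and NR4A2, and 3 times in EGR3, NR4A1 and SRF. It was found 1 time in EGR1 and 0 times in IER2, against a median of 2 over 18960 genes. Per kilobase, IER3 (6.65), DUSP1 (5.95) and NR4A1 (5.39) were dense in it, at densities reached by 4.37%, 6.02% and 7.71% of genes. The part of the pentamer in the values of these genes was not tested. GC content of the transcript ran from 47.9% in NR4A2 to 61.7% in IER2, with a median of 49.4% over all genes, and NR4A2 alone lay below that median. Over genes whose average log2 CPM reached 3, Spearman's rho of GC content with the difference HJJ_3_5 minus DMSO was 0.379. Between libraries of one group it was larger in size, at -0.420 for DMSO 2 minus DMSO 1 and -0.613 for HJJ_3_5 2 minus HJJ_3_5 1. These are descriptions across genes. The fit with the trend removed takes out GC content and length together. The part of GC content alone in the values of the 9 genes was not tested. Exon bases of IER2 (30.8%), IER3 (26.5%), NR4A1 (10.3%) and EGR3 (3.38%) are shared with a non-coding gene on the opposite strand. No source states whether counting used strand, so reads of these partners cannot be told apart.

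**Figure D4:**
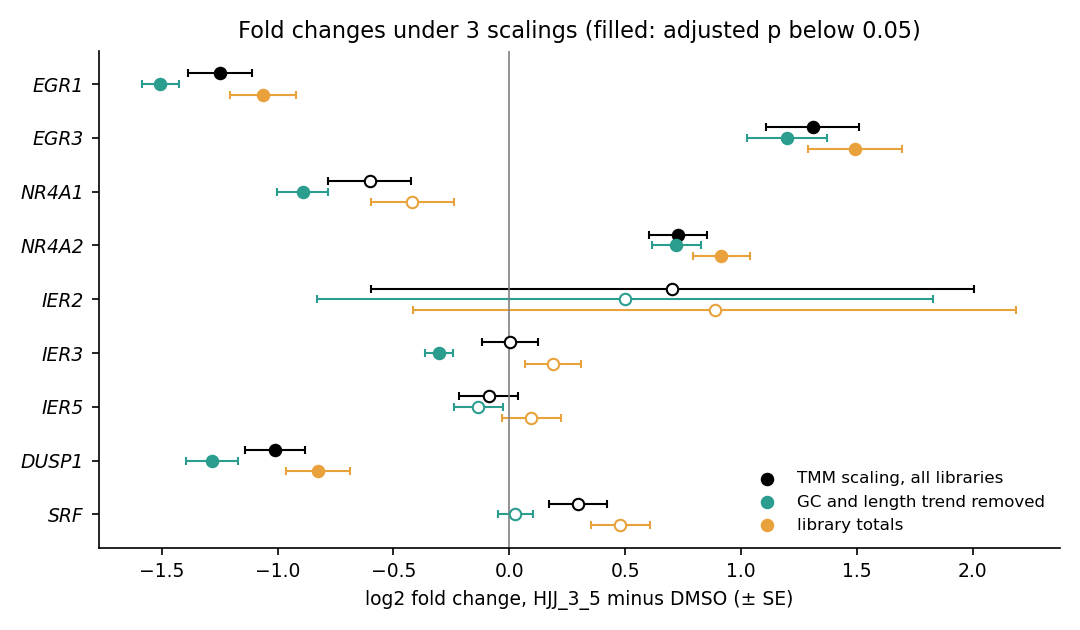
log2 fold change (HJJ_3_5 minus DMSO) ± SE of the 9 genes with TMM scaling (black), with a GC and length trend removed (green) and with library totals (orange); filled points have an edgeR adjusted p below 0.05. EGR1 and DUSP1 were lower and EGR3 and NR4A2 higher under all 3, while NR4A1 and IER3 were called lower under the trend removal alone.

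Per kilobase of transcript, the order of levels with DMSO was IER3 (615 CPM per kilobase), EGR1 (207), IER5 (40.2), IER2 (27.7), NR4A1 (20.5), SRF (20.4), DUSP1 (16.9), NR4A2 (11.2) and EGR3 (1.49). The libraries of NR4A1 and SRF overlapped, at 18.7 and 22.3 against 19.3 and 21.6 CPM per kilobase, and IER2 spread from 7.46 to 48.0. With HJJ_3_5, EGR1 stood at 87.1, SRF at 25.1, NR4A2 at 18.5, NR4A1 at 13.5 and DUSP1 at 8.40 CPM per kilobase. The 9 genes together summed to 2125 and 1807 CPM with DMSO and 1665 and 1626 CPM with HJJ_3_5. EGR1 took 32.7% and 33.4% of that sum with DMSO and 18.0% and 15.2% with HJJ_3_5.

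The libraries of the groups did not overlap for 4 of 4 tested paralogs and 4 of 4 tested partners, against 69.0% of all genes, but none of these differences passed the test. Of all genes 17.4% passed it, and a list of 4 genes is too short to be set against that share. Of the paralogs EGR2, EGR4, NR4A3 and IER5L, 0 were called (edgeR; 0 by DESeq2 and 0 by limma-voom). EGR2, an inducible paralog of EGR1, had 8.99 and 7.93 CPM with DMSO and 10.6 and 9.17 CPM with HJJ_3_5 (log2 fold change 0.22). NR4A3, the third orphan receptor of the family, had 3.60 and 3.22 CPM with DMSO and 1.91 and 1.94 CPM with HJJ_3_5 (-0.82, edgeR adjusted p = 0.0618). EGR4 was scarce, with 0.102 and 0.471 CPM with DMSO and 0.937 and 0.920 CPM with HJJ_3_5 (1.70 ± 0.66, edgeR adjusted p = 0.135), and its value ran from 0.97 without DMSO 1 to 3.14 without DMSO 2. The median of the paralogs was 0.25, and -0.02 with the trend removed. Of 4 tested partners of EGR and NR4A proteins, 0 were called by edgeR, DESeq2 or limma-voom. Among them, the EGR corepressors NAB1 and NAB2 had log2 fold changes of -0.39 (edgeR adjusted p = 0.105) and 0.18 (0.319). NAB1 was called lower with a replicate block (-0.40, edgeR adjusted p = 0.0491). With the trend removed, NAB1 was at -0.16 and NAB2 turned to -0.18, neither of them called. In that fit 1 partner was lower, the retinoid X receptor RXRB (-0.75, edgeR adjusted p = 0.03), named after its value was seen.

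Among genes that act on SRF or the kinases upstream of it, the calls are given beside the background of 9.17% higher and 8.27% lower over all genes. That background belongs to the fit with TMM scaling and all libraries. Other fits called other shares of all genes, and counts over all genes are given below for several of them. With library totals the median of all genes was 0.19 and more of all genes were higher. With the trend removed more of all genes were lower. Of 6 SRF cofactors tested, 1 was lower, the ternary complex factor ELK4, with 117 and 124 CPM against 69.5 and 86.6 CPM (-0.62 ± 0.14, edgeR adjusted p = 0.0497). That call was lost with the trend removed (-0.09, edgeR adjusted p = 0.43) and with library totals (-0.44, edgeR adjusted p = 0.0906). Of 19 kinases and CREB-pathway genes, 3 (15.8%) were lower and 0 higher. Their median was -0.06, and 0.12 with library totals. The 3 were the JNK genes MAPK9 (-0.89) and MAPK8 (-0.65) and RPS6KA5 (-0.80), which encodes the CREB and histone kinase MSK1. With the trend removed RPS6KA5 turned to 0.24 and MAPK8 was no longer called (-0.38, edgeR adjusted p = 0.0647). With library totals 2 of the 19 were lower, MAPK9 and RPS6KA5, and 2 were higher, MAP2K2, the ERK kinase MEK2 (0.54), and the CREB coactivator CRTC3 (0.53), both named after their values were seen. Of 9 MAP kinase phosphatases other than DUSP1, 1 was higher. This was DUSP4, a nuclear ERK and JNK phosphatase, with 597 and 607 CPM with DMSO and 1031 and 1007 CPM with HJJ_3_5 (0.76 ± 0.08, edgeR adjusted p = 0.0273). DUSP1 and DUSP4 therefore changed in opposite directions. With the trend removed, 3 of these phosphatases were lower, DUSP5 (-0.79), DUSP7 (-0.51) and DUSP16 (-0.43), named after their values were seen. DESeq2 called 2 of the 9 lower, DUSP5 (-0.51, adjusted p = 0.0181) and DUSP16 (-0.57, adjusted p = 0.0072), and 1 higher, DUSP4. Of 24 SRF targets of the actin cytoskeleton, 1 was lower, vinculin VCL (-0.87), and 1 was higher, TGFB1I1, the focal adhesion protein Hic-5 (0.81). The call of TGFB1I1 was lost with the trend removed (0.43, edgeR adjusted p = 0.146). The median of that list was 0.06, and -0.18 with the trend removed. In that fit 3 were lower, VCL and, named after their values were seen, the actin-binding TAGLN2 (-0.76) and the cytoplasmic actin ACTG1 (-0.74). By DESeq2 4 of the 24 were lower, with VCL, TAGLN2 and ACTG1 among them, and 1 was higher. With library totals VCL was lower and 4 were higher, TGFB1I1 and, named after their values were seen, MYL9 (0.65), ACTA2 (0.65) and ACTB (0.55). Leaving out 1 library leaves 1 sample in a group. Over such fits the median of the 19 kinases and CREB-pathway genes ran from -0.18 to -0.06. The median of all genes ran from -0.01 to 0.01 there.

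Of 37 other immediate early genes, 9 (24.3%) were lower, against 8.27% of all genes, and 1 (2.70%) was higher, against 9.17%. Their median log2 fold change was -0.26. The list was chosen with earlier results of these data known. The smallest p-values belonged to HES1, a transcriptional repressor downstream of NOTCH (-1.34), KLF10, induced by TGF-beta (-0.97), and ZFP36, which destabilises AU-rich mRNAs (-1.69). The 1 higher gene, named after its value was seen, was the AP-1 subunit JUND (0.65), whose call was lost with the trend removed (0.24, edgeR adjusted p = 0.113). FOSL1, named after its value was seen, was at 0.95 and not called (edgeR adjusted p = 0.0547). It was called higher by DESeq2 (0.94, adjusted p = 0.0026) but not by limma-voom. It was also called higher with the replicate block (0.95, edgeR adjusted p = 0.014) and with library totals (1.13, edgeR adjusted p = 0.033). By DESeq2 13 of the 37 were lower and 4 higher, and more of all genes were lower than with edgeR. With the trend removed 17 of the 37 were lower and 1 higher, FOSL1 (0.61). The median was -0.49 where the median of all genes was -0.05. More of all genes were lower in that fit than the 8.27% above, and their count is given below. With library totals 9 of the 37 were lower and 6 higher, and the median was -0.07 where the median of all genes was 0.19. Leaving out 1 library at a time leaves 1 sample in a group. Over these fits the median of the 37 ran from -0.32 to -0.19, and that of all genes from -0.01 to 0.01.

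**Figure D5:**
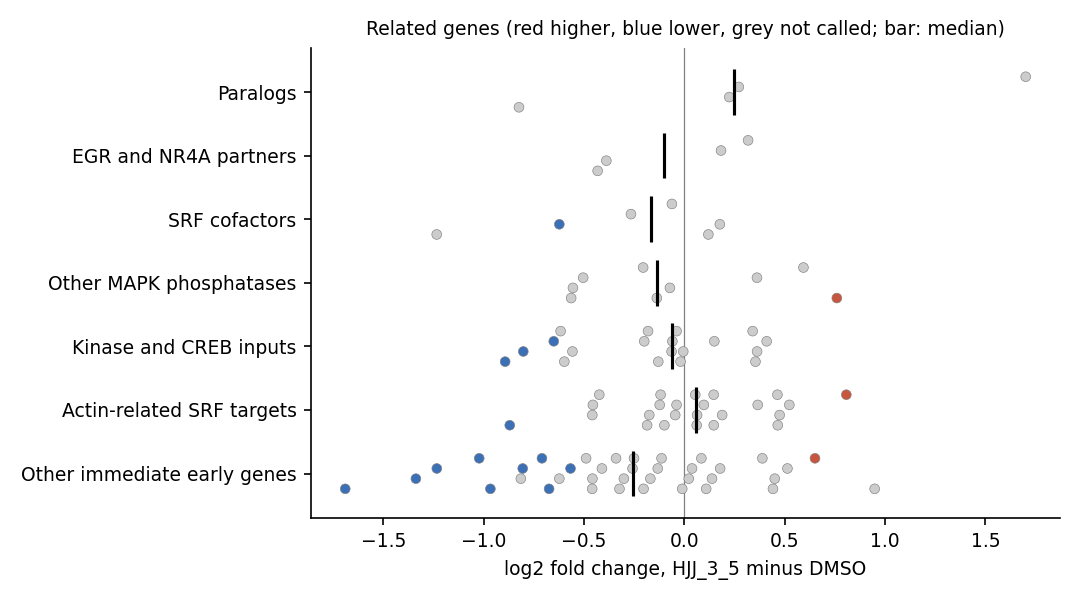
log2 fold change (HJJ_3_5 minus DMSO) of the related genes, 1 point a gene, by list; red is called higher, blue called lower, grey not called, and the black bar is the list's median. The 37 other immediate early genes hold 9 lower calls and 1 higher call, and the 4 paralogs and 4 partners hold 0 calls. Of all genes tested, 17.4% were called.

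Among 10662 other genes whose average log2 CPM reached 3, those with the pattern nearest to EGR1 over the 4 libraries were GORASP1, a Golgi stacking protein, IRF7, an interferon regulatory factor, and DBNDD1. Their Euclidean distances in centred log2 CPM were 0.0879, 0.0902 and 0.104, and their log2 fold changes were -1.17, -1.22 and -1.23. Nearest to EGR3 were E2F1, a G1/S transcription factor, TRPM2, a cation channel, and MCAT, a mitochondrial malonyltransferase, at distances of 0.0923, 0.0966 and 0.108, with log2 fold changes of 1.36, 1.29 and 1.31. With 4 libraries many genes share a pattern by its group difference alone, so likeness here is a description.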

How the data were processed

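After 24 h with or without the compound, HCT116 RNA was made into mRNA libraries for Illumina sequencing, per the labels' protocols. The authors deposited raw read counts per Ensembl gene, 1 column per library, with no normalization. Aligner, counting tool, annotation and strand setting: not given in the sources used here. Mouse genome builds alone appear in the submitters' processing notes although the gene identifiers are human, so the true build is not known. Of the rows, 20148 were matched to a symbol. Positions, lengths and GC content come from GENCODE 29, promoters from RefSeq (GRCh38.p14).

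Genes were kept with filterByExpr (minimum count 10, minimum total 15), scaled by TMM and tested with edgeR 4.0.16 in R 4.3.3 (two-sided quasi-likelihood test of group alone, 2 residual degrees of freedom, Benjamini-Hochberg over 14180 genes). The standard error is the log2 fold change divided by the square root of F, and 95% intervals are unadjusted. DESeq2 1.42.0, limma-voom 3.58.1, other scalings and filters, a replicate block, a GC and length trend removed per library (natural splines, 4 degrees of freedom, fitted on genes with average log2 CPM of at least 3) and leaving out each library were alternatives. The fits were tested on simulated data that held no GC trend between libraries, so calls that turn with that trend were not covered. The chi-square per degree of freedom between libraries of a group was 37.5 with DMSO and 50.0 with HJJ_3_5, so no library was a copy. Promoter motifs were searched in 300-base windows.

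The genes, lists and tests were chosen with earlier results of these data known. All 9 genes are named. From each related list, up to 3 called genes with the smallest p are named, with the direct partners NAB1, NAB2, EGR2, EGR4 and NR4A3, the 3 genes nearest in pattern to EGR1 and to EGR3, and further genes where the text says that they were named after their values were seen. The rule also allows other partners, which are given by counts.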

Additional observations from a re-analysis of the deposited data

How the results depend on the processing

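The directions of EGR1, EGR3, NR4A1, NR4A2, DUSP1 and SRF held under all 13 alternatives, with log2 fold changes of -1.51 to -1.06, 1.13 to 1.49, -0.89 to -0.42, 0.64 to 0.92, -1.28 to -0.83 and 0.03 to 0.48. Leaving out 1 library leaves 1 sample in a group, which is assumed to vary like the others. Over those 4 fits the number of the 9 genes called higher ran from 0 to 2 and lower from 0 to 2, and over all genes from 0 to 976 higher and from 0 to 1716 lower. At an adjusted p below 0.01 edgeR called 0 genes higher and 0 lower, so 0 and 0 of the 9, where 5578 genes had an unadjusted p below 0.05. With the GC and length trend removed 4 of the 9 were lower, with or without the replicate block. Over all genes, library totals, which shift every fold change by about 0.19, gave 2614 higher, and DESeq2 gave 2161 lower. The trend removal gave 1926 lower and, with the replicate block, 2068 higher and 2938 lower. The replicate block alone gave 2077 higher and 2540 lower; same-numbered libraries deviated together with a correlation of 0.167 over genes, but nothing states that the numbers pair samples. With the block 3 of the 9 were lower, NR4A1 being added (edgeR adjusted p = 0.0208).

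The signs of values near 0 turned. IER3 was -0.0039 with relative log expression factors, -0.0015 with no filter, -0.0039 with DESeq2, -0.0011 with limma-voom, -0.0014 with the block, -0.30 with the trend removed, with or without the block, and -0.12 to 0.11 over fits without 1 library. IER5 was 0.10 with library totals and -0.22 to 0.024 without 1 library. IER2 ran from -1.77 to 2.59 without 1 library. RPS6KA5 was 0.24 and NAB2 -0.18 with the trend removed, with or without the block. The cause of these turns was not tested. Even for IER3, with at least 21992 reads in a library, the 95% interval reached from -0.31 to 0.32.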

Other observations

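The swing of IER2 between libraries of a group was shared by few genes, named here after their values were seen. Of 12 genes over 4-fold apart between libraries in both groups, 8 went in opposite directions in the groups, and 4 of those had DMSO 1 and HJJ_3_5 2 high as IER2 did. These were IER2, CREB3L2, HELB and PRSS53. CREB3L2, a transcription factor of the endoplasmic reticulum, had 208 and 37.8 CPM with DMSO and 25.2 and 145 CPM with HJJ_3_5. HELB, a DNA helicase, had 53.3 and 9.74 CPM with DMSO and 4.14 and 28.1 CPM with HJJ_3_5. PRSS53, a serine protease, had 27.02 and 1.81 CPM with DMSO and 0.873 and 15.1 CPM with HJJ_3_5. Among the other immediate early genes, ATF3, a stress-induced transcription factor, had 101 and 48.0 CPM with DMSO and 31.3 and 74.5 CPM with HJJ_3_5, so that DMSO 1 lay above DMSO 2 and HJJ_3_5 2 above HJJ_3_5 1, as for IER2. The cause was not tested.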
